A study of Mus musculus with 12 samples.

Results

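Metallothioneins and zinc transporters were followed in ribosome-bound RNA of cortical astrocytes from Fmr1 knockout and wild-type mice. The 8 genes are Mt1, Mt2, Mt3, Slc30a1, Slc30a10, Slc39a12, Slc39a14 and Slc39a1. They were chosen by symbol, and all 8 were found among the 52550 rows of the count table and passed the filter on low counts that left 14990 genes. Their ribosome-bound RNA came from somatosensory cortical slices of mice that carry the Aldh1l1-TRAP transgene, in which an eGFP-tagged ribosomal protein is made under the astrocyte promoter Aldh1l1 and pulled down with an antibody. The knockout animals are Fmr1−/y Aldh1l1-TRAP and the wild-type animals Fmr1+/y Aldh1l1-TRAP, both labelled FVB/C57 and P40 (postnatal day 40), and Fmr1 encodes FMRP, the RNA-binding protein absent in fragile X syndrome. Knockout libraries 14, 16 and 18 were set against wild-type libraries 13, 15 and 17, each the sum of 2 deposited entries. The labels tie no library to a separate animal, so a p-value measures only the spread between these libraries.

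Metallothioneins are small cysteine-rich proteins that bind zinc and copper in the cytosol. Mt1 and Mt2 are the widely expressed forms, switched on by zinc through the transcription factor MTF-1 and also by glucocorticoids and inflammatory signals, and astrocytes are their main site in brain. Mt3 is the brain-enriched form, first described as a growth inhibitory factor of neurons, and responds little to metals. Transporters of the SLC30 (ZnT) family lower cytosolic zinc by moving it out of the cell or into vesicles, and those of the SLC39 (ZIP) family raise it. Slc30a1 encodes the plasma membrane zinc exporter, itself a target of MTF-1. Slc30a10 encodes a manganese exporter, and Slc39a14 an importer of manganese, iron and zinc. Slc39a12 encodes a brain-enriched zinc importer, and Slc39a1 a widely expressed one.

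The start regions of the 3 expressed metallothioneins and of Slc30a1 are shown because MTF-1 acts through a metal response element with the core TGCNCNC. Each sequence holds 250 bases before and 50 after the start site in RefSeq (GRCm38.p6, plus strand), with each match to that core, on either strand, in capitals. The windows are chr8:94178839-94179138 for Mt1, chr8:94172368-94172667 for Mt2, chr8:94152357-94152656 for Mt3 and chr1:191906531-191906830 for Slc30a1.
Mt1: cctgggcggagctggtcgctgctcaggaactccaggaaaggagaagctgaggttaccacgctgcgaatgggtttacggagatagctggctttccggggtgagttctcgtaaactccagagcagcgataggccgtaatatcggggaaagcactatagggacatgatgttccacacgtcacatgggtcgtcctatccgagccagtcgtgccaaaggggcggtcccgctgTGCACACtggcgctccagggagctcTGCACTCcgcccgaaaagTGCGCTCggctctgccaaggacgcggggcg
Mt2: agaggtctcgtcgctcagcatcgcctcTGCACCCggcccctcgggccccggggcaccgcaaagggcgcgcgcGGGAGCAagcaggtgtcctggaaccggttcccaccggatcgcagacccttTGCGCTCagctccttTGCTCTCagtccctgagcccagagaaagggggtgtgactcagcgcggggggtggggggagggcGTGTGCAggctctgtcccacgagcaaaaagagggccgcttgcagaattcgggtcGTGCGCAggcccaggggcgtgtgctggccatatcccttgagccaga
Mt3: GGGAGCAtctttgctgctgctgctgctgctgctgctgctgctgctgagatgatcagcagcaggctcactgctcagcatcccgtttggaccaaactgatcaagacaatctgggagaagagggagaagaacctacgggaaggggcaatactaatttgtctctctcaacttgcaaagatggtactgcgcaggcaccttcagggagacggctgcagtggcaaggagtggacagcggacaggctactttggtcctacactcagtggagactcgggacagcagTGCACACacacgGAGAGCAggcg
Slc30a1: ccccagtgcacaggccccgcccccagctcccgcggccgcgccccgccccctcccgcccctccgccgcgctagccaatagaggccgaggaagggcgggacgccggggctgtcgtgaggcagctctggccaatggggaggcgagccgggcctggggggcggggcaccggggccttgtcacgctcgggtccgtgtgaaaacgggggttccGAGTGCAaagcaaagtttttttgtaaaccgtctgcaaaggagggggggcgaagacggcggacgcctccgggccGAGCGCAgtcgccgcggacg

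The Mt2 window held 6 matches to the core, more than the windows found for the other members. At least 6 were found in 0.225% of the 32851 start regions of the same length. The Mt1 window held 3 matches, at -23, 3 and 21 (base 1 is the start site on which the window is set, and the base before it is -1), and the Mt3 window also held 3, of which 2 lay downstream of the start. At least 3 matches occurred in 7.1% of all start regions. Slc30a1 had 2 matches, and at least 2 occurred in 20.2% of start regions. Slc30a10 had 3, of which 2 overlap each other on opposite strands. Slc39a12 and Slc39a1 had 1 each, and 51% of all start regions have at least 1. The antioxidant response core TGACNNNGC was found once each in the Mt2, Slc30a1 and Slc39a1 windows and in 12.4% of all start regions. Genes without it in their window, such as Mt1, may hold it outside the window, which was not searched. Slc39a14 was not matched. A match is a run of letters and not a measured binding site. Mt3, Mt2 and Mt1 lie in this order on chromosome 8, with 18469 bases between Mt3 and Mt2 and 5315 bases between Mt2 and Mt1. These gaps run between the ends of the RefSeq gene records, and the start site of the window lies 206 bases inside the record for Mt1 and 84 bases inside it for Slc30a1. The match counts hold for these windows alone. A window set on another start site could hold other matches, and none was searched.

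Depth and the content of the libraries differed in ways that touch these genes. Total counts ran from 10953958 to 22397202. The features CT010467.1, Lars2 and AY036118, on which reads of ribosomal RNA collect, held 35.6% and 45.1% of counts in knockout libraries 14 and 16, against 0.892% to 7.45% in the other 4 libraries. Fmr1 was at 4.32, 4.22 and 1.32 CPM (a gene's count relative to the library total, scaled by the TMM method) in the knockout libraries, against 31.6, 38.4 and 37.0 CPM in the wild-type libraries. The summed level of 12 astrocyte markers was 20629.5, 21414 and 16641 CPM in knockout libraries 14, 16 and 18, against 22137, 19699 and 16958 CPM in wild-type libraries 13, 15 and 17. For 12 neuron markers it was 2168, 1842 and 2581 CPM in the knockout libraries, against 1328, 2294 and 2517 CPM in the wild-type libraries. Knockout library 18 and wild-type library 17 thus had the lowest astrocyte and the highest neuron marker levels of the 6. In bulk RNA, fewer cells of a type and less RNA per cell cannot be told apart.

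No genotype difference in the 8 genes passed a test that sets it against the spread between libraries. With edgeR's quasi-likelihood test adjusted over all genes tested, 0 of the 8 passed the threshold of 0.05, where 0% of the 14990 genes passed. This test did not pass Fmr1 either, which had a log2 fold change of -3.53 and an adjusted p of 0.29983, so a miss does not show that a gene did not differ. At an unadjusted p under 0.05 the count was 0 of 8, against 1.77% of all genes (0.734% higher and 1.03% lower in the knockout). In 0 of the 8 did the knockout libraries lie all above or all below the wild-type libraries, against 6.2% of all genes. DESeq2, which passed 0.0534% of all genes, edgeR's exact test, which passed 0.06%, and limma voom, which passed 0%, also called 0 of the 8. The median log2 fold change of the 8 was 0.06, with 6 higher and 2 lower, against -0.0019 over all genes tested.

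**Figure D1:**
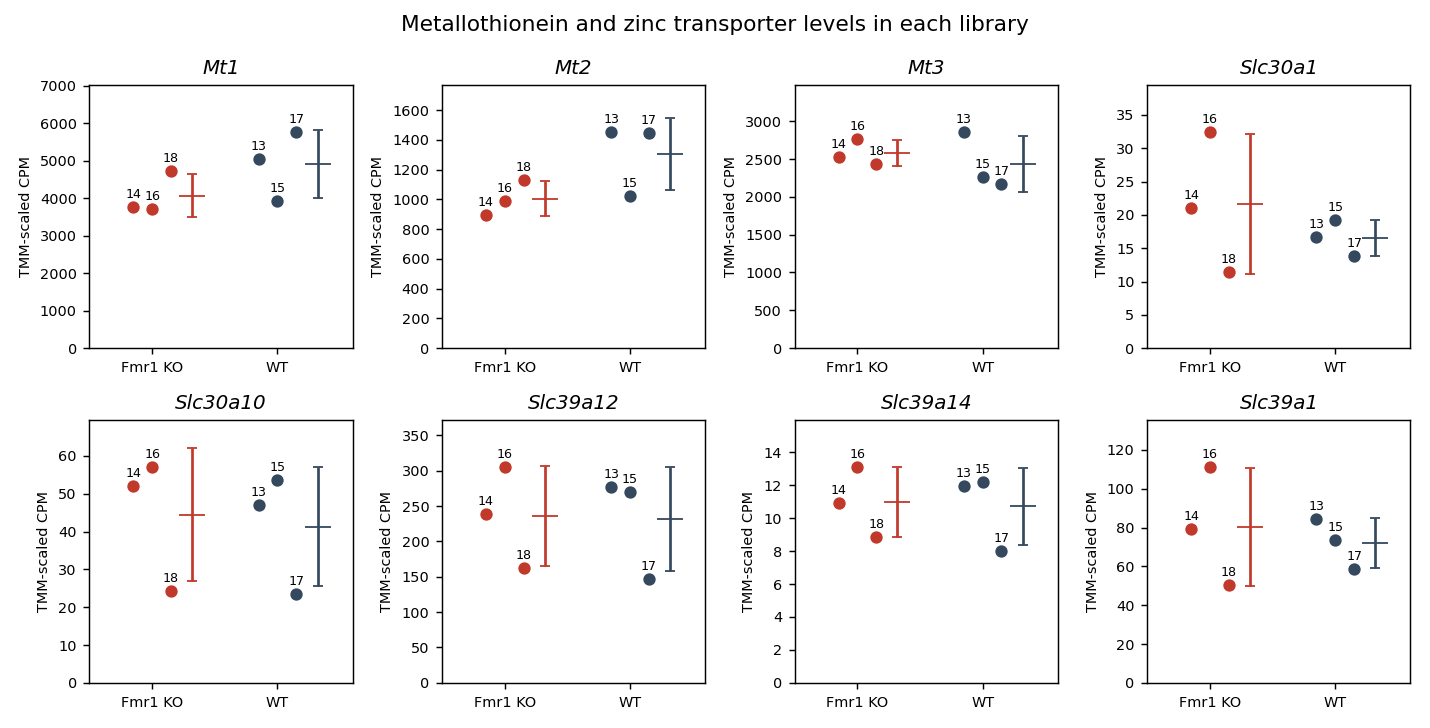
TMM-scaled CPM of each gene (y axes, from 0) in the 3 Fmr1 KO libraries (red, left) and the 3 WT libraries (blue, right). Points carry the library number, and the bar beside them is the mean ± SD. The groups overlap in all 8 panels, and libraries 18 and 17 are the lowest of their genotype for each of the 5 transporters.

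Mt1 and Mt2 were the members on the lower side in the knockout. Mt2 measured 896, 990.2 and 1129 CPM in knockout libraries 14, 16 and 18, against 1450.4, 1024 and 1443 CPM in wild-type libraries 13, 15 and 17. Wild-type library 15 lay below knockout library 18, so the groups overlapped, while wild-type libraries 13 and 17 lay above all 3 knockout libraries. Mt2 averaged 1005 ± 117 CPM over knockout libraries against 1306 ± 244 CPM over wild-type ones (SD, n = 3 each). Its log2 fold change was -0.38 (SE 0.18), with a 95% interval of the fold from 0.579 to 1.02. Its p was 0.0671 unadjusted and 1.00 adjusted in edgeR's quasi-likelihood test, and 0.2 in the exact permutation test, which cannot go below 0.1 with 3 libraries against 3. In the authors' deposited table Mt2 had a log2 fold change of -0.38, a p of 0.0109 and an adjusted p of 0.405. That table lists the 2 entries of each library singly and its test is not stated, so its p may rest on other units.

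Mt1 showed the same layout of libraries. It measured 3753, 3719 and 4729.9 CPM in the knockout libraries, against 5044, 3936 and 5757 CPM in the wild-type libraries. Knockout library 18 lay above wild-type library 15, and wild-type libraries 13 and 17 again lay above all 3 knockout libraries. The mean was 4067 ± 574 CPM over knockout libraries against 4912 ± 918 CPM over wild-type ones (SD, n = 3 each), a log2 fold change of -0.27 (SE 0.19) with a 95% interval of the fold from 0.614 to 1.12. Mt1 had an unadjusted p of 0.184 in edgeR's quasi-likelihood test and 0.2 in the exact permutation test. In the authors' deposited table its log2 fold change was -0.27 with an adjusted p of 0.764.

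The size of the Mt1 and Mt2 differences varied with the libraries and the fit. Without libraries 14 and 16, which leaves 1 knockout library, the log2 fold change was -0.03 for Mt1 and -0.18 for Mt2. With the share of ribosomal RNA reads in the fit it was -0.05 for Mt1 and -0.21 for Mt2. With the 3 features that collect these reads removed from the table it was -0.28 for Mt1 and -0.38 for Mt2, close to the values with them. Leaving out wild-type library 17, which has few such reads, gave -0.14 for Mt1 and -0.30 for Mt2. Without wild-type library 15 the values were larger, at -0.40 for Mt1 and -0.52 for Mt2. Without knockout library 18 they were -0.39 and -0.47. With each library left out in turn, Mt1 ran from -0.40 to -0.14 and Mt2 from -0.52 to -0.30. Titles of libraries 13, 14 and 16 hold a number pair that starts with 5 and those of 15, 17 and 18 one that starts with 6, and the labels do not say what it is. Within the first set the log2 difference of knockout and wild type was -0.43 for Mt1 and -0.62 for Mt2, and within the second -0.0092 and -0.11. The part of these library features in the result was not tested.

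Mt3 lay on the other side with overlapping groups. It measured 2532, 2767 and 2433 CPM in the knockout libraries, against 2853, 2261 and 2174 CPM in the wild-type libraries. The highest and the lowest of the 6 values were both wild type. The mean was 2578 ± 172 CPM over knockout libraries against 2429 ± 369 CPM over wild-type ones (SD, n = 3 each), a log2 fold change of 0.09 (SE 0.16) with a 95% interval of the fold from 0.827 to 1.36 (unadjusted p = 0.600 in edgeR's quasi-likelihood test). Within the first set of title numbers the log2 difference was -0.11 and within the second 0.13. Mt3 was the steadiest of the 8 genes, with 1.31-fold between its highest and lowest library.

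Metallothionein reads together held 0.559%, 0.485% and 0.988% of all counts in the knockout libraries, against 1.11%, 0.816% and 1.16% in the wild-type libraries. All counts here include the features that collect ribosomal RNA reads, which held 35.6% and 45.1% in libraries 14 and 16 and so lower these shares. Scaled by TMM, the sum of the 3 genes was 7181, 7477 and 8292 CPM in the knockout, against 9347, 7221 and 9374 CPM in the wild type. The sum averaged 7650.1 ± 575 CPM over knockout libraries against 8648 ± 1236 CPM over wild-type ones (SD, n = 3 each; exact permutation p = 0.3). Without TMM scaling, and with those features in the totals, the difference of the means was -3502 CPM, against -997 CPM with TMM scaling. With the features removed from the table it was -1241 CPM. Their removal makes the library totals smaller and so raises CPM, and this value is not on the same scale as -997 CPM. The 2 entries of a library differed by at most 2.52% for Mt1, 1.47% for Mt2 and 2.43% for Mt3. At the read depth of Mt1 its entries differed by more than sampling noise. Mt4, the metallothionein of stratified epithelium, had 0 counts in all 6 libraries, which allows up to 0.422 CPM in library 16, the shallowest (3 counts, for counting error only).

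Ratios within the metallothionein reads overlapped between the genotypes. The ratio of Mt1 to Mt2 CPM was 4.19, 3.76 and 4.19 in the knockout libraries, against 3.48, 3.84 and 3.99 in the wild-type libraries. Its mean was 4.04 ± 0.250 in the knockout and 3.77 ± 0.263 in the wild type (SD, n = 3 each; exact permutation p = 0.3). The ratio of Mt3 to the sum of Mt1 and Mt2 was 0.545, 0.588 and 0.415 in the knockout libraries, against 0.439, 0.456 and 0.302 in the wild-type libraries. Its mean was 0.516 ± 0.0897 in the knockout and 0.399 ± 0.0844 in the wild type (SD, n = 3 each; exact permutation p = 0.3). Libraries 18 and 17 had the lowest ratio of their genotype. These ratios compare read counts and not molecules, since no transcript lengths were applied, and for the same reason levels of different members are not ranked here.

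Slc30a1 and Slc30a10, the exporters, varied over 2-fold between the 6 libraries, as did the importers Slc39a12 and Slc39a1. Slc30a1 measured 21.0, 32.4 and 11.5 CPM in the knockout libraries, against 16.7, 19.2 and 13.8 CPM in the wild-type libraries. The knockout held both the highest and the lowest of the 6 values. The mean was 21.6 ± 10.5 CPM over knockout libraries against 16.6 ± 2.71 CPM over wild-type ones (SD, n = 3 each), a log2 fold change of 0.36 (SE 0.34) with a 95% interval of the fold from 0.749 to 2.21. The direction of Slc30a1 turned without knockout library 16, to -0.04, and without libraries 14 and 16 together, to -0.51. Expected counts of Slc30a1 were not whole (within 1e-06) in 10 of 12 entries, those of Mt2 in 11 and those of Slc30a10 in 12, which RSEM gives where it divides reads between features. Its entries differed by up to 31.5%, in library 18, where they held 119.83 and 176.64 expected counts.

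Slc30a10 measured 52.1, 57.0 and 24.4 CPM in the knockout libraries, against 46.9, 53.6 and 23.5 CPM in the wild-type libraries. Library 18 of the knockout and library 17 of the wild type were the lowest of the 6, apart from the other 4. The mean was 44.5 ± 17.6 CPM over knockout libraries against 41.3 ± 15.8 CPM over wild-type ones (SD, n = 3 each), a log2 fold change of 0.10 (SE 0.37) with a 95% interval of the fold from 0.590 to 1.94. The direction turned when knockout library 14 (-0.04), knockout library 16 (-0.12) or wild-type library 17 (-0.19) was left out, and without libraries 14 and 16 together the log2 fold change was -0.74.

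Among the importers, Slc39a12 measured 239, 305 and 163 CPM in the knockout libraries, against 277, 270.3 and 147 CPM in the wild-type libraries. The layout matched that of Slc30a10, with libraries 18 and 17 lowest in each genotype. The mean was 236 ± 71.1 CPM over knockout libraries against 231 ± 73.4 CPM over wild-type ones (SD, n = 3 each), a log2 fold change of 0.03 (SE 0.30) with a 95% interval of the fold from 0.636 to 1.63. The log2 fold change of Slc39a12 was -0.20 without knockout library 16, -0.22 without wild-type library 17 and -0.48 without libraries 14 and 16.

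Slc39a1 measured 79.4, 111 and 50.4 CPM in the knockout libraries, against 84.3, 73.8 and 58.7 CPM in the wild-type libraries. As with Slc30a1, knockout libraries 16 and 18 held the highest and the lowest value. The mean was 80.3 ± 30.3 CPM over knockout libraries against 72.3 ± 12.9 CPM over wild-type ones (SD, n = 3 each), a log2 fold change of 0.15 (SE 0.28) with a 95% interval of the fold from 0.714 to 1.72. Without knockout library 16 it was -0.16, and without libraries 14 and 16 together -0.49. Slc39a14 was the lowest in reads of the members, with 93 to 309 summed counts in a library. It measured 10.9, 13.1 and 8.86 CPM in the knockout libraries, against 11.9, 12.2 and 7.997 CPM in the wild-type libraries. The mean was 10.96 ± 2.12 CPM over knockout libraries against 10.7 ± 2.35 CPM over wild-type ones (SD, n = 3 each). Its log2 fold change was 0.02 (SE 0.24) with a 95% interval of the fold from 0.694 to 1.49, and it turned to -0.12 without knockout library 16, to -0.15 without wild-type library 17 and to -0.25 without libraries 14 and 16 together. Over the 5 transporters the unadjusted p ran from 0.315 to 0.932 in edgeR's quasi-likelihood test and from 0.6 to 1 in the exact permutation test.

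Within the first set of title numbers the log2 difference of knockout and wild type was 0.64 for Slc30a1, 0.22 for Slc30a10, -0.04 for Slc39a12, 0.0049 for Slc39a14 and 0.16 for Slc39a1. Within the second set it was -0.51, -0.54, -0.29, -0.16 and -0.38 in the same order of genes. For 4 of the 5 transporters the direction therefore differed between the sets, of which the first holds 2 knockout and 1 wild-type libraries and the second 1 knockout and 2 wild-type libraries. Neither set gives a test of its own.

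**Figure D2:**
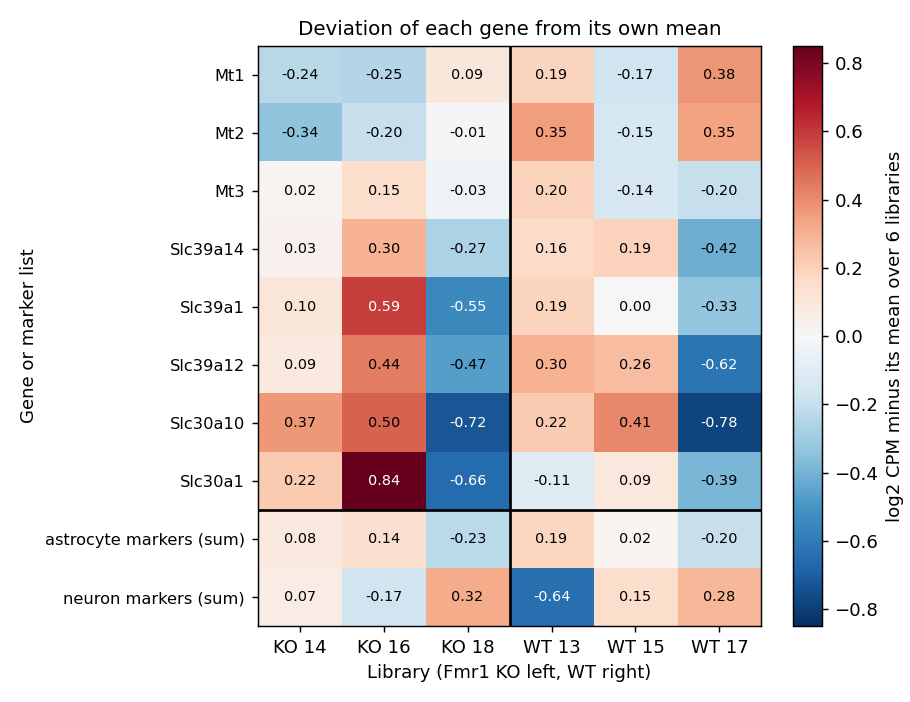
Each cell is the log2 CPM of a gene (rows) in a library (columns, Fmr1 KO left of WT) minus its mean over the 6 libraries, with the summed astrocyte and neuron markers below the line. Mt1 and Mt2 share 1 pattern. The 5 transporters are highest in library 16 and lowest in libraries 18 and 17, to differing degrees, and this layout is not particular to them.

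The 8 genes fell into different patterns over the libraries. Likeness was measured as the root mean square difference of log2 CPM after each gene was centred on its mean of the 6 libraries, a description over points that share depth and library makeup. Mt1 and Mt2 were the closest pair, at 0.094. Mt2 ranked 7 among 9348 genes of at least 10 CPM in closeness to Mt1, and Mt1 ranked 6 in closeness to Mt2. Slc39a12 and Slc39a14 (0.15), Slc30a1 and Slc39a1 (0.18), and Slc39a12 and Slc39a1 (0.18) came next. These pairs stood out less among all genes. In closeness to Slc39a12, Slc39a14 ranked 234 and Slc39a1 ranked 417 of 9348. Slc39a1 ranked 8 in closeness to Slc30a1, but Slc30a1 ranked 407 in closeness to Slc39a1. Slc39a14 was nearer to Mt3 (0.20) than to Slc30a10 (0.30) or Slc30a1 (0.31). Mt1 and Slc30a10 were the farthest apart, at 0.74, and Mt1 and Mt3 were 0.31 apart.

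The genes closest to each member were taken by the same measure. R74862 and Ap4b1, an adaptor protein subunit, were closest to Mt1 (0.047 and 0.054), and Pgap2 and Nudt8 to Mt2 (0.064 and 0.074). Tle1, a transcriptional corepressor, and Cisd1, a mitochondrial iron-sulfur protein, were closest to Mt3 (0.024 and 0.027). Gjb6, the astrocyte gap junction gene for connexin 30, and Rdh11 were closest to Slc39a12 (0.036 and 0.042). Gcnt4 and the fatty acid elongase gene Elovl5 were closest to Slc30a10 (0.079 and 0.10), and Mfsd14b and Clcc1 to Slc30a1 (0.12 and 0.16). Slc22a23 and Pbxip1 were closest to Slc39a14 (0.036 and 0.043), and Zdhhc6 and Pigh to Slc39a1 (0.043 and 0.045).

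Set against the summed astrocyte markers, a scale chosen after seeing the data, the 5 transporters varied less between libraries and Mt1 and Mt2 more. Per 1000 CPM of astrocyte markers, Slc39a12 stood at 11.6, 14.2 and 9.79 CPM in the knockout libraries, against 12.5, 13.7 and 8.64 CPM in the wild-type libraries. The fold between its highest and lowest library was 1.65 on this scale, against 2.08 in CPM, and that of Slc39a14 was 1.31 against 1.64. Mt1 stood at 182, 174 and 284 CPM per 1000 in the knockout libraries, against 228, 199.8 and 339 CPM per 1000 in the wild-type libraries. Its fold between the highest and lowest library was 1.95 on this scale, against 1.55 in CPM. Libraries 18 and 17 had the highest Mt1 of their genotype on this scale. The log2 difference of knockout and wild type on this scale was -0.26 for Mt1 (exact permutation p = 0.5), -0.36 for Mt2 (exact permutation p = 0.3) and 0.04 for Slc39a12 (exact permutation p = 0.9). Whether astrocyte content sets these patterns was not tested.

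**Figure D3:**
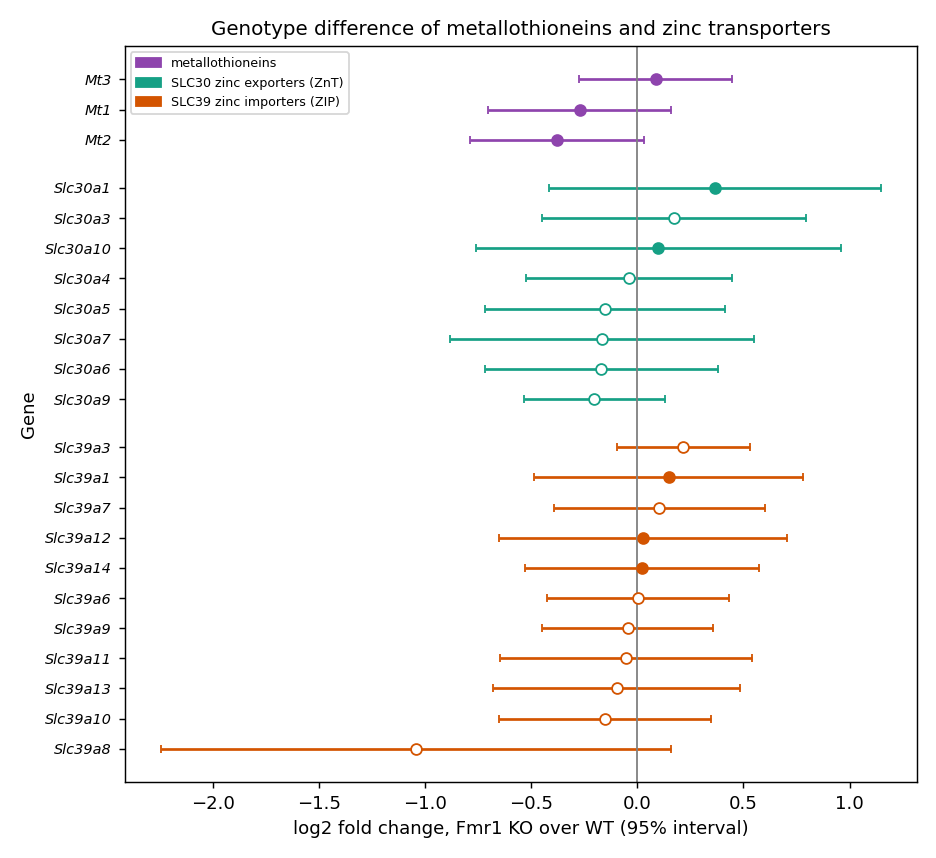
Log2 fold change, Fmr1 KO over WT, with its 95% interval from edgeR's quasi-likelihood fit (x axis) for each tested metallothionein, SLC30 and SLC39 gene (y axis). Filled points are the 8 genes described here, and every interval includes 0.

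The rest of both transporter families gave no call. Of the 10 SLC30 genes 8 were tested, with 3 higher, 5 lower, 0 passed in either direction and a median log2 fold change of -0.10. Slc30a9, a mitochondrial member, measured 178, 185 and 147 CPM in the knockout libraries, against 211, 189.6 and 187 CPM in the wild-type libraries (log2 fold change -0.20, SE 0.14; unadjusted p = 0.198 in edgeR's quasi-likelihood test). Every knockout library of Slc30a9 lay below every wild-type library, as for 3.25% of all genes. Slc30a3, which loads zinc into synaptic vesicles of neurons, measured 9.22, 10.7 and 14.5 CPM in the knockout libraries, against 7.15, 12.7 and 10.9 CPM in the wild-type libraries, with the lowest value in library 13, which was also lowest in neuron markers. Slc30a2 and Slc30a8 had 29 and 1 counts in all and were not tested.

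Of the 14 SLC39 genes 11 were tested, with 6 higher, 5 lower, 0 passed in either direction and a median log2 fold change of 0.0044. Slc39a3, a plasma membrane importer, measured 35.0, 42.2 and 35.5 CPM in the knockout libraries, against 31.1, 34.7 and 31.0 CPM in the wild-type libraries (log2 fold change 0.22, SE 0.14; unadjusted p = 0.148 in edgeR's quasi-likelihood test). Its knockout libraries lay above all wild-type libraries, as for 2.95% of all genes. Slc39a8, which carries zinc and manganese, measured 0.245, 0.563 and 0.464 CPM in the knockout libraries, against 0.724, 1.15 and 0.727 CPM in the wild-type libraries (log2 fold change -1.04, SE 0.52; unadjusted p = 0.0808 in edgeR's quasi-likelihood test). Slc39a8 did not overlap between genotypes, as for 3.25% of all genes on the lower side, but was near the limit of detection. Slc39a2, Slc39a4 and Slc39a5 had 8 counts each over the 6 libraries.

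Genes that act with these members were also without a call, except where named. Of 7 zinc-responsive and MTF-1 genes, which include Mt1, Mt2 and Slc30a1, 2 were higher, 5 lower and 0 passed, with a median log2 fold change of -0.15. The lower ones include Mt1, Mt2 and Mtf1, and the median is the value of the importer gene Slc39a10. The list holds the sensor beside other genes, so its counts by direction do not measure a zinc response. Mtf1, the zinc sensor itself, measured 21.0, 23.0 and 16.2 CPM in the knockout libraries, against 21.2, 26.9 and 25.8 CPM in the wild-type libraries, with overlap (log2 fold change -0.31, SE 0.18). Among 12 manganese and iron genes 6 were higher, 6 lower and 0 passed. Ftl1, a ferritin light chain gene with related copies in the genome, measured 159.5, 173 and 197 CPM in the knockout libraries, against 154, 144 and 96.0 CPM in the wild-type libraries (log2 fold change 0.43, SE 0.20), without overlap. Of the 12 manganese and iron genes 1 was without overlap on the higher side and 2 on the lower, against 2.95% and 3.25% of all genes. Of 12 copper genes 5 were higher, 7 lower and 0 passed, with a median log2 fold change of -0.01. Atp7b, a copper-exporting ATPase, measured 1.47, 0.845 and 1.20 CPM in knockout libraries against 1.49, 2.05 and 1.76 CPM in wild-type ones, without overlap but at a low level (log2 fold change -0.57, SE 0.38). Of the 12 copper genes 0 were without overlap on the higher side and 1 on the lower, against the same shares of all genes. Slc31a1, the copper importer, averaged 25.7 ± 6.80 CPM over knockout libraries against 21.3 ± 3.72 CPM over wild-type ones (SD, n = 3 each).

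Known inducers of Mt1 and Mt2 act through pathways whose other targets are in the data. Of 12 glucocorticoid response genes 4 were higher, 8 lower and 0 passed, with a median log2 fold change of -0.05. Per1, a clock gene also induced by glucocorticoids, measured 14.3, 16.8 and 14.5 CPM in the knockout libraries, against 22.6, 21.2 and 17.2 CPM in the wild-type libraries (log2 fold change -0.42, SE 0.17), without overlap. The quasi-likelihood test of edgeR gave Per1 an adjusted p of 1.00, with 0.0363 before adjustment. Ddit4, another target, lay the other way, also without overlap (log2 fold change 0.27, SE 0.15). It measured 73.2, 90.0 and 74.6 CPM in the knockout libraries, against 72.3, 57.0 and 68.0 CPM in the wild-type libraries. Of the 12 genes 2 were without overlap on the higher side and 1 on the lower, against 2.95% and 3.25% of all genes. Of 11 oxidative and heavy metal stress genes 6 were higher, 5 lower and 0 passed, with a median log2 fold change of 0.0031. Hspa1b, an inducible chaperone, had a log2 fold change of 0.68 (SE 0.35), which is uncertain because its near-identical copy Hspa1a can share reads with it. Slc7a11, the cystine carrier, was at -0.20 (SE 0.17).

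Of 12 interleukin-6 and STAT3 response genes 8 were tested, with 6 higher, 2 lower and 0 passed in edgeR's quasi-likelihood test. Junb, an AP-1 factor, measured 44.9, 72.7 and 33.4 CPM in the knockout libraries, against 20.2, 15.9 and 15.8 CPM in the wild-type libraries. The adjusted p of Junb was 0.000433 in DESeq2 and 0.00176 in the exact test of edgeR, both past the threshold, and it missed the threshold with edgeR's quasi-likelihood test (adjusted p = 1.00). Of 6 genes linked to synaptic zinc 5 were tested, with 4 higher, 1 lower and 0 passed. S100b, an astrocyte protein that binds calcium and zinc, measured 1469, 1475 and 1056 CPM in the knockout libraries, against 1576, 1100.2 and 865 CPM in the wild-type libraries (log2 fold change 0.18, SE 0.24).

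**Figure D4:**
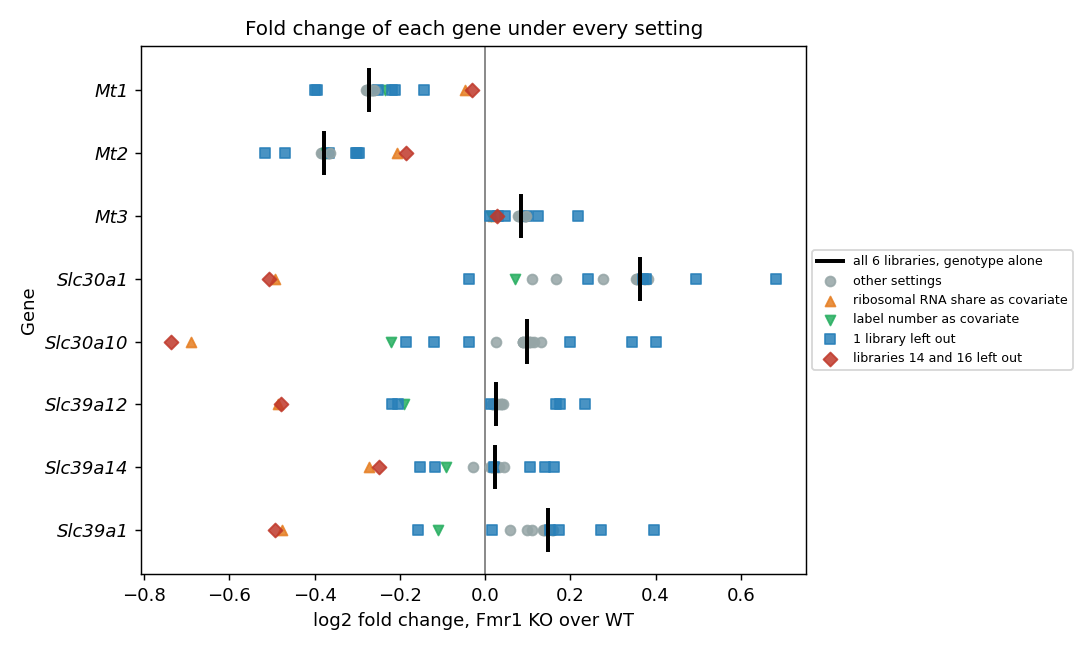
Log2 fold change, Fmr1 KO over WT, of each gene (y axis) under every setting tried (x axis), with the vertical black mark for all 6 libraries and genotype alone. Mt1 and Mt2 stay below 0 and Mt3 above 0 in all 18 alternatives, whereas each transporter crosses 0 in at least 3.

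Markers of other cell types were read alongside. The summed level of 11 microglia markers (1 higher and 10 lower in the knockout) ran from 56.4 to 64.7 CPM in knockout libraries and from 62.6 to 79.4 CPM in wild-type ones. For 10 oligodendrocyte markers it ran from 637 to 1472 CPM in knockout libraries and from 700.4 to 1246 CPM in wild-type ones, and was highest in library 18 of the knockout and library 17 of the wild type. For 7 oligodendrocyte precursor markers it ran from 204 to 241 CPM in knockout libraries and from 167 to 193 CPM in wild-type ones, without overlap. Of the 7 markers 5 were higher and 2 lower, and among single genes 2.95% had every knockout library above every wild-type library. Endothelial cells (9 markers) gave 10.2 to 17.8 CPM in knockout libraries and 12.0 to 16.4 CPM in wild-type ones. Mural cells and fibroblasts (10 markers) gave 65.5 to 71.0 CPM in knockout libraries and 63.9 to 70.5 CPM in wild-type ones. Choroid plexus and ependyma (8 markers) gave 30.7 to 99.3 CPM in knockout libraries and 25.9 to 199 CPM in wild-type ones. Blood cells (5 genes) gave 41.3 to 129.99 CPM in knockout libraries and 40.9 to 88.1 CPM in wild-type ones. No marker was at 0 counts in all 6 libraries. The part of these cell types in the members' levels was not tested.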

How the data were processed

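The values are gene-level expected counts that the authors deposited for 12 entries, made with STAR 2.5.3a and RSEM 1.3.0 on mm10 per the submitters' processing notes, from a stranded kit; no source used here states the strand setting or the annotation release. A comparison table, also deposited, gives the authors' log2 fold changes, p-values and a scaled signal per entry. No source used here states its test; its direction was read from Fmr1, and no result rests on its signal.

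Entries of 1 library had a median chi-square per feature of 0.467 to 0.495 (features with at least 20 counts), against 2.93 to 18.8 between libraries of a genotype. They differed by about the sampling noise for most features, so each pair was added up as 1 sample and then rounded to whole numbers. Some features differed by more, since the chi-square per degree of freedom was 1.17 to 2.33 within a library. Among the members the mean chi-square was 5.03 for Mt1 and 2.81 for Slc30a1, above sampling noise, and 0.494 to 1.77 for the rest. Genes were filtered by filterByExpr, scaled by TMM and tested with edgeR 4.0.16 (quasi-likelihood F test, genotype alone, Benjamini-Hochberg adjustment, R 4.3.3), with DESeq2 1.42.0, edgeR's exact test and limma 3.58.1 voom as alternatives. The SE was taken from the F statistic. The quasi-likelihood test was tested on simulated data. Intervals come from the fit and cover the spread between libraries, counting error included. The entries show how far repeat counts of a library differ, and the limit for 0 counts is 3 counts.

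Members and lists were chosen with earlier results of these data known. Both motifs, the entry checks per gene and the scale per 1000 CPM of astrocyte markers were chosen after seeing the data. Named were the 8 members, the genes of each list that any tool called or otherwise the 2 with the smallest p, and the 2 genes of at least 10 CPM closest to each member. Start regions and gene positions are from RefSeq (GRCm38.p6), which matched 7 of the 8 members for start regions.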

Additional observations from a re-analysis of the deposited data

How the results depend on the processing

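Each of the 8 log2 fold changes was recomputed under 18 alternatives, of which scaling to the astrocyte markers was chosen after seeing the data and turned no direction. None passed the threshold in the other 17, and the rescaled values had only a permutation test that cannot pass it. Mt1 ranged from -0.40 to -0.03, Mt2 from -0.52 to -0.18 and Mt3 from 0.011 to 0.22, each in 1 direction. The smallest unadjusted p over the alternatives was 0.0196 for Mt2, without wild-type library 15, and 0.0232 for Slc30a1, without knockout library 18. Both came from edgeR's quasi-likelihood test, and neither passed after adjustment. Leaving out each library in turn gave -0.038 to 0.68 for Slc30a1, -0.19 to 0.40 for Slc30a10, -0.22 to 0.23 for Slc39a12, -0.15 to 0.16 for Slc39a14 and -0.16 to 0.396 for Slc39a1. With the ribosomal RNA share as covariate the direction turned for Slc30a1 (-0.49), Slc30a10 (-0.69), Slc39a12 (-0.49), Slc39a14 (-0.27) and Slc39a1 (-0.48). Without libraries 14 and 16, with the lone knockout library assumed to vary like the wild type, they were -0.51, -0.74, -0.48, -0.25 and -0.49. With the title number as covariate Slc30a10 (-0.22), Slc39a12 (-0.19), Slc39a14 (-0.093) and Slc39a1 (-0.11) turned, and with limma voom Slc39a14 (-0.029). Slc30a1 was at 0.11 with limma voom, 0.17 from the first entries alone and 0.07 with the title number, against 0.36. The cause was not tested.

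Over all genes edgeR's quasi-likelihood test called 0, with 265 at an unadjusted p under 0.05, against 8 with DESeq2, 9 with edgeR's exact test, 6 without a filter, 1 with the ribosomal RNA share as covariate and 0 to 2 when 1 library was left out (2 without knockout library 18 and 1 without wild-type library 15). The metallothionein sum differed by -3502 CPM without TMM scaling, against -997 CPM with it and -1711 to -634 CPM with 1 library left out. Without the features that collect ribosomal RNA reads it differed by -1241 CPM, on smaller library totals and so on another CPM scale. Library numbers are not shared across genotypes, so they gave no pairs. The title number, which is shared, was fitted as a block as given above.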
